A study of Mus musculus with 6 samples.

Results

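Transcripts of the cornea's own cells were measured in neutrophils sorted from infected corneas, through 34 marker genes of 54838 genes in the count tables. The list applies no threshold on their levels, but it was drawn up with earlier results of these data known. It holds 16 genes of corneal epithelium, 13 of stroma and 5 of blood and lymphatic vessels. All 34 symbols were found in the GENCODE M21 annotation of GRCm38. The neutrophils had been isolated by FACS, from mouse eyes, 24 h after the cornea was infected with PAO1, a laboratory strain of Pseudomonas aeruginosa. There were 3 libraries from wild-type (WT) mice and 3 from IL1a -/- mice (knockout, KO), which lack the gene of the cytokine IL-1 alpha, and both genotypes were infected. No uninfected or unsorted sample was analysed here, and the labels used give neither the age nor the strain of the mice. The labels number biological replicates without naming animals, so the p-values below describe the spread between these libraries. Values are given as CPM, gene counts scaled to the normalized library size, in the order of replicates 1, 2 and 3 of each genotype.

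The corneal surface is a stratified epithelium held together by keratins and desmosomes. Krt5 and Krt14 mark its dividing basal cells, Krt15 and Trp63 are used as markers of the limbus at the corneal rim, and Krt12 is the keratin of corneal differentiation. The stroma beneath is built by keratocytes from collagen fibrils and small leucine-rich proteoglycans such as keratocan (Kera), lumican (Lum) and decorin (Dcn). The healthy central cornea has no vessels, whereas the limbus carries both blood and lymphatic vessels.

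The libraries held 22855676 to 33626008 gene counts, so 3 counts, taken as the detection floor, stood for 0.0925 to 0.131 CPM. Il1a was at 5116 to 8776 CPM in the WT libraries and 2.89 to 5.37 CPM in the KO libraries, as labelled. A list of 10 neutrophil genes summed to 35660 to 41190 CPM in WT and 34320 to 38060 CPM in KO. Most of that sum came from S100a9, S100a8 and Lcn2, at means of 13710, 9991 and 8980 CPM over all libraries, while Ly6g averaged 12.9 CPM. Knockout replicate 2 stood apart from the other libraries on the first principal component of all tested genes, at 67.3 against -32.9 to 2.1 (32.1% of the variance). It also held the highest level of many of the corneal markers, so the main values that rest on it are also given without it.

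Keratin counts carry an uncertainty of their own, because keratins of one type share long coding stretches and a short read from such a stretch cannot be given to a single gene. The sequences below, from GENCODE M21 transcripts on GRCm38, show the longest identical run (capitals) between the basal keratin Krt14 and the wound keratins Krt16 and Krt17, with 12 bases on each side in lower case. Positions count from 1 at the start of the coding sequence. Krt14 (chromosome 11, 100203162 to 100207548, minus strand) and Krt16 (chromosome 11, 100246091 to 100248902, minus strand) were identical over 134 coding bases, 306 to 439 in Krt14 and 282 to 415 in Krt16. Krt14 and Krt17 (chromosome 11, 100256217 to 100261029, minus strand) shared 71, from 1216 in Krt14 and 1105 in Krt17.
Krt14, run shared with Krt16: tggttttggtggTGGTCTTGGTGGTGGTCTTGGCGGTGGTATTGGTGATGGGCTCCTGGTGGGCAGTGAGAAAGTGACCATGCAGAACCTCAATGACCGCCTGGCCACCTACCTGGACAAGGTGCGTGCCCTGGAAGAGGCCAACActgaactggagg
Krt16, run shared with Krt14: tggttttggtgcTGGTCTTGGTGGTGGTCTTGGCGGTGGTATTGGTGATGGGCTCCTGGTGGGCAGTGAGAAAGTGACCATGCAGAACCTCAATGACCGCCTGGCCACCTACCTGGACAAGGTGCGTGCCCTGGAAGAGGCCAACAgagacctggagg
Krt14, run shared with Krt17: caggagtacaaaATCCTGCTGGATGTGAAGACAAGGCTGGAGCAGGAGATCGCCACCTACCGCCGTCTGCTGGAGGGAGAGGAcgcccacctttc
Krt17, run shared with Krt14: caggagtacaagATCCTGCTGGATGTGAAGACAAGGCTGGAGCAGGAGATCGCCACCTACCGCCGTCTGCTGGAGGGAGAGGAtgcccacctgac
Of all 50-base stretches in its transcripts, 13.9% of those of Krt14 and 12.2% of those of Krt5 also occurred in transcripts of another gene. The epithelial adaptor gene Sfn shared 15.03%, mostly with the gene model Gm7850. For Krt12 the share was 42.0%, all with an antisense gene described below. Among the other keratins of the set, Krt15 shared 0.640% and Krt13, Krt4 and Krt19 none.

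Transcripts of the corneal markers were detected in every library, and the markers made up a very small share of each. The markers are only a part of what corneal cells transcribe, so their sum is not the share of all corneal RNA. Together the 34 genes took 0.00652%, 0.0210% and 0.0167% of all gene counts in WT and 0.00635%, 0.0205% and 0.00811% in KO. Set against the neutrophil list, their summed CPM was 0.165% of that list's at the lowest (WT replicate 1) and 0.594% at the highest (KO replicate 2). The summed level differed 3.43-fold between the highest and lowest WT library and 3.38-fold in KO, and the genotypes overlapped. Between KO replicates 1 and 3 alone it differed 1.34-fold. In bulk RNA, fewer corneal cells in a library and less RNA per corneal cell cannot be told apart.

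The 3 compartments did not follow one order across the libraries. The 16 epithelial genes summed to 29.9, 178.9 and 131.4 CPM in WT, from 799, 5556 and 4087 counts, and to 37.8, 151.7 and 50.8 CPM in KO, from 1202, 4919 and 1163 counts. Replicate 2 of either genotype and WT replicate 3 were high, and the remaining 3 libraries were low. The exact 95% counting intervals of WT replicate 1 (745 to 856 counts) and WT replicate 2 (5411 to 5704 counts) lay far apart. The 13 stromal genes summed to 26.3, 33.6 and 48.9 CPM in WT and 18.8, 49.4 and 29.2 CPM in KO, a narrower range in which WT replicate 3 and KO replicate 2 were about level at the top. The 5 vascular genes summed to 6.59, 2.80 and 0.675 CPM in WT and 3.71, 2.96 and 0.917 CPM in KO. WT replicate 1, the lowest for the epithelial sum, was here the highest, and replicate 3 of both genotypes rested on 21 vascular counts each. Counting intervals cover counting error only, since amplified reads were not tagged by molecule.

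**Figure D1:**
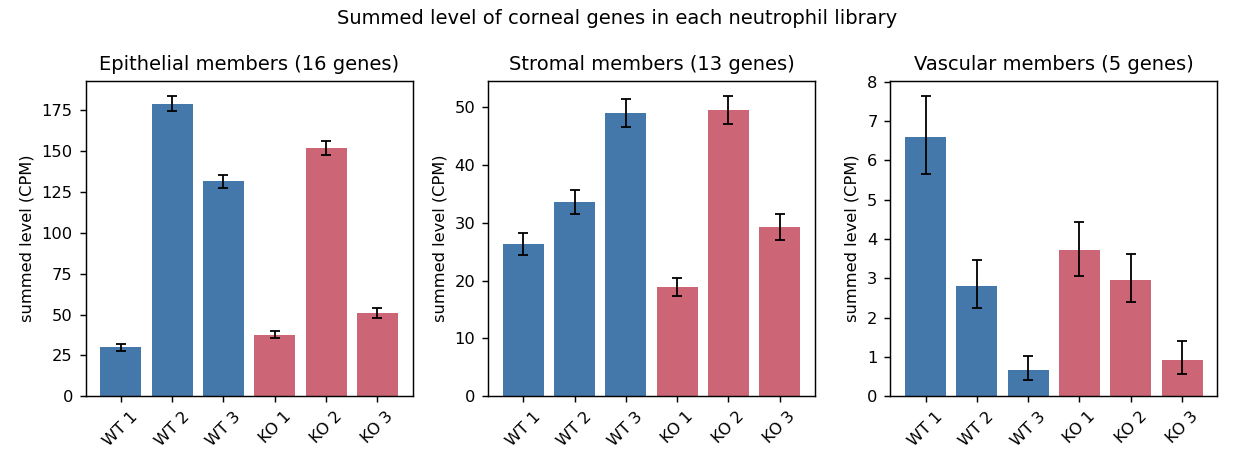
Summed CPM of the epithelial, stromal and vascular markers in each library (bars; WT in blue, KO in red), with exact 95% counting intervals as error bars. The epithelial sums spread from 29.9 to 178.9 CPM across the libraries, and the 2 genotypes overlap in all 3 compartments.

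Between genotypes, the sums differed by less than their spread within a genotype. The epithelial sum was 113 ± 76.1 CPM in WT and 80.1 ± 62.3 CPM in KO (SD, n = 3 each), a log2 ratio of -0.50. That ratio was -1.36 without KO replicate 2 and -0.01 without WT replicate 2. For the stroma the sums were 36.2 ± 11.54 and 32.5 ± 15.5 CPM, a log2 ratio of -0.16, which was -0.59 without KO replicate 2 and turned to 0.12 without WT replicate 3 and to 0.12 without KO replicate 1. The vascular sums were 3.35 ± 2.99 and 2.53 ± 1.45 CPM, a log2 ratio of -0.41 that turned to 0.54 without WT replicate 1 and to 0.85 without Lyve1.

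Among epithelial genes, the basal keratin Krt14 was the most abundant. Per kb of exon, Krt14 was the highest of all 34 genes at a mean of 21.6 CPM per kb, followed by Sfn at 7.91, Krt5 at 6.17 and Krt15 at 5.15. Krt14 was at 8.76, 85.6 and 31.2 CPM in WT and 14.8, 64.0 and 23.6 CPM in KO. Its partner Krt5, with which it forms the filaments of basal cells, was at 4.53, 31.2 and 16.3 CPM in WT and 3.58, 21.6 and 4.11 CPM in KO. Both keratins were highest in the libraries numbered 2, and both overlapped between genotypes. The fold between the highest and lowest WT library was 9.78 for Krt14 and 6.89 for Krt5.

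Keratins of the limbus and of simple or mucosal epithelia followed another order. Krt15 was at 2.58, 6.57 and 31.7 CPM in WT and 0.346, 11.99 and 1.44 CPM in KO. Krt19 was absent from WT replicate 1 and at 1.90 and 4.25 CPM in the other WT libraries, against 0.283, 2.81 and 0.655 CPM in KO. WT replicate 3 was the highest for both, with KO replicate 2 next, and KO replicate 1 was among the lowest. Krt13, a keratin of non-cornified stratified epithelia, was at 0.150, 1.03 and 1.06 CPM in WT and 0.126, 2.19 and 0.175 CPM in KO. Krt4, the usual partner of Krt13, was too low to be tested and ranged from 0.0749 CPM in WT replicate 1 to 1.63 CPM in KO replicate 2. For Krt15 the KO libraries differed 34.7-fold among themselves, the widest range within a genotype of any member for which that fold could be given. Without KO replicate 2 that fold was 4.17.

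Genes of the differentiated corneal epithelium were detected at low levels. Krt12 was at 0.711, 1.67 and 1.48 CPM in WT and 1.92, 4.50 and 0.830 CPM in KO, highest in KO replicate 2 and overlapping between genotypes. Aldh3a1, the crystallin-like aldehyde dehydrogenase of the cornea, was at 1.76, 1.42 and 8.17 CPM in WT and 2.52, 3.52 and 1.62 CPM in KO. For Aldh3a1, WT replicate 3 stood high, and WT replicate 2, the library with most Krt14, was the lowest of all. Pax6, the transcription factor of eye development, was not tested. It had no counts in WT replicate 1 and KO replicate 3 and reached at most 0.836 CPM, in WT replicate 3.

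The Krt12 values are the least certain of the keratins. In the annotation 54.4% of its exon bases (chromosome 11, minus strand) overlap the antisense gene A830036E02Rik, and the unstranded count leaves out reads where gene models overlap. Krt12 therefore had 19, 52 and 46 counts in WT and 61, 146 and 19 in KO, whereas the sum of the strand columns gave 67, 194 and 267 in WT and 161, 417 and 78 in KO. On that scale WT replicate 3 held more Krt12 counts than WT replicate 2. Outside the overlap the antisense gene had 3 counts, all in KO replicate 2. Since the library kit does not mark strand, reads in the overlap cannot be given to one gene. Krt5 is overlapped over 5.87% of its exon bases by Gm44323, and its counts went from 121, 969 and 507 to 165, 1219 and 616 in WT on that sum.

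The junction and adhesion genes Cdh1, Epcam and Dsp were highest in WT replicate 2. Cdh1, which encodes E-cadherin, was at 0.599, 8.31 and 2.96 CPM in WT and 1.86, 3.61 and 0.786 CPM in KO. Epcam, an epithelial adhesion molecule, was at 0.449, 2.87 and 1.48 CPM in WT and 0.660, 2.31 and 0.786 CPM in KO. Dsp, the desmosomal linker desmoplakin, was at 0.0374, 2.87 and 0.482 CPM in WT and 0.472, 2.34 and 1.22 CPM in KO. In each of these genes WT replicate 1 was lowest, WT replicate 2 highest and KO replicate 2 next. Trp63, which encodes the basal cell regulator p63, was not tested and ranged from 0.0374 CPM in WT replicate 1 to 1.93 CPM in WT replicate 2.

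Sfn, which encodes the epithelial 14-3-3 sigma protein, had the smallest biological coefficient of variation of the tested epithelial members (0.350), a measure of relative spread beyond counting error. It was at 7.41, 19.6 and 12.2 CPM in WT and 7.01, 18.96 and 11.4 CPM in KO, again highest in the libraries numbered 2. Perp, a desmosomal membrane protein gene, was at 2.17, 11.2 and 7.11 CPM in WT and 2.55, 8.91 and 2.18 CPM in KO. Clu, the gene of the secreted chaperone clusterin, was at 0.636, 2.16 and 11.7 CPM in WT and 1.35, 2.81 and 1.22 CPM in KO. Sfn and Perp kept the order of Krt14 at the top, whereas Clu was highest in WT replicate 3, 18.5-fold above WT replicate 1.

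Stromal transcripts were led, per kb, by Dcn at a mean of 1.74, Sparc at 1.67 and Col1a1 at 1.18 CPM per kb. Decorin (Dcn) was at 7.07, 11.49 and 16.5 CPM in WT and 5.75, 12.8 and 7.34 CPM in KO. Lum was at 1.31, 0.644 and 1.09 CPM in WT and 0.912, 1.79 and 1.18 CPM in KO. Both proteoglycan genes varied by under 3-fold within each genotype, and the genotypes overlapped. Keratocan (Kera), the most keratocyte-restricted of the set, was at 1.39, 0.773 and 0.386 CPM in WT and 0.0943, 0.278 and 0.306 CPM in KO. For Kera every WT library lay above every KO library, the nearest being WT replicate 3 (12 counts) and KO replicate 3 (7 counts). KO replicate 1 had 3 Kera counts, which is at the floor. Fmod and Prelp, the genes of fibromodulin and of another matrix leucine-rich protein, were not tested. Fmod had 48 counts in WT replicate 3 and none elsewhere. Prelp was at 0.161 to 1.42 CPM in WT, had 1 count in KO replicate 2 and none in the other KO libraries, so the genotypes did not overlap.

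The fibrillar collagens separated from each other across libraries. Col1a1 was at 6.92, 6.09 and 10 CPM in WT and 4.81, 11.0 and 7.56 CPM in KO. Col1a2, which encodes the other chain of type I collagen, was at 2.55, 1.61 and 4.82 CPM in WT and 0.754, 8.54 and 3.49 CPM in KO. Col3a1, of type III collagen, was at 0.299, 0.386 and 3.86 CPM in WT and 0.0314, 7.46 and 0.131 CPM in KO. Col1a1 stayed within 1.64-fold in WT and 2.28-fold in KO, whereas Col3a1 was concentrated in KO replicate 2 and WT replicate 3. KO replicate 2 held 61.3% of the summed Col3a1 CPM of the 6 libraries.

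The minor collagens and growth factor receptor genes were low, and Sparc was among the higher stromal genes. Col5a1, whose product regulates fibril width, was at 0.412, 0.0644 and 0.193 CPM in WT and at 0, 0.586 and 0.524 CPM in KO. Col6a1, a chain of the beaded filament collagen VI, was at 1.20, 0.322 and 0.450 CPM in WT and 0.692, 0.648 and 2.66 CPM in KO. Sparc, a collagen-binding matrix protein gene, was at 4.12, 11.4 and 7.69 CPM in WT and 5.19, 4.01 and 5.42 CPM in KO. Sparc was one of 2 stromal genes highest in WT replicate 2, and its KO libraries stayed within 1.35-fold. The other was the fibroblast receptor gene Pdgfra, which had counts in 3 libraries, was not tested and reached 0.129 CPM. Pdgfrb, the receptor gene of pericytes and fibroblasts, was at 0, 0.451 and 0.933 CPM in WT and 0.534, 2.28 and 0.568 CPM in KO, with KO replicate 2 highest.

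**Figure D2:**
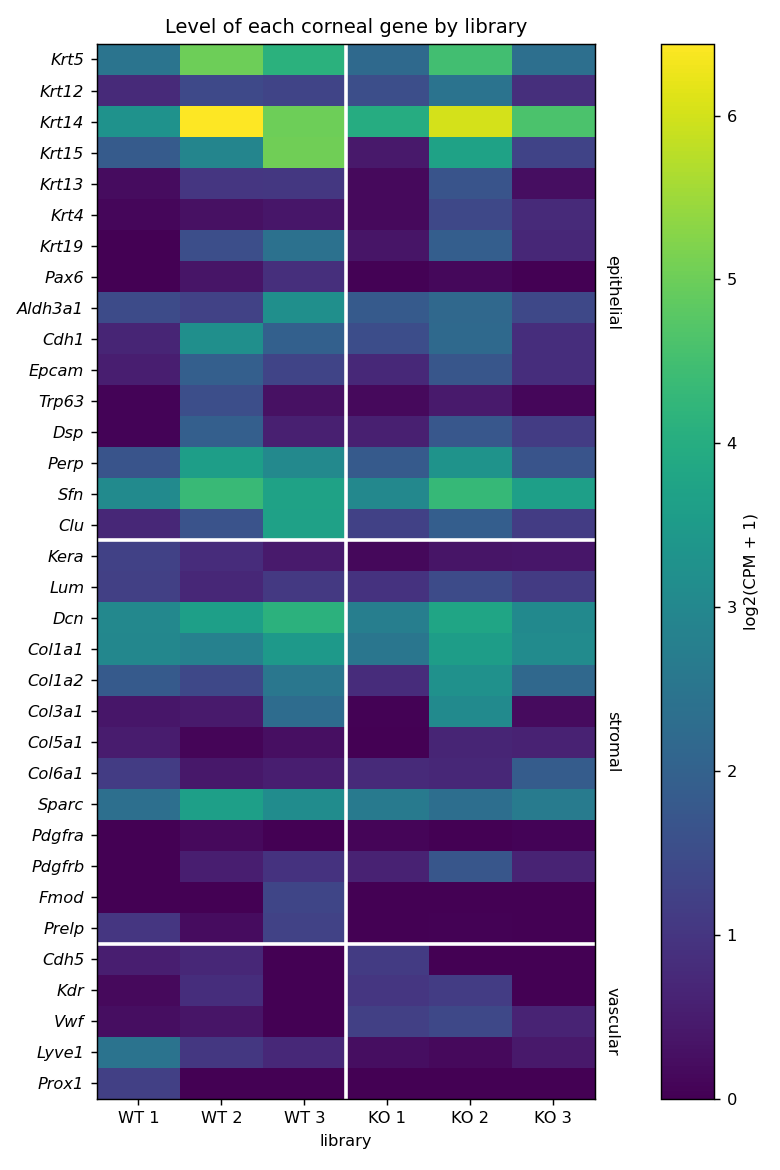
Level of each of the 34 genes in each library, as log2 of CPM plus 1, with epithelial, stromal and vascular genes in blocks. Krt14 is the strongest epithelial row, from 8.76 CPM in WT replicate 1 to 85.6 CPM in WT replicate 2, while 4 of the 5 vascular genes are at 0 in WT replicate 3.

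Within the set, blood vessel genes and lymphatic genes peaked in different libraries. Cdh5, the endothelial cadherin gene, was at 0.449 and 0.644 CPM in WT replicates 1 and 2 and at 1.16 CPM in KO replicate 1, with no counts in the other 3 libraries. Kdr, which encodes the VEGF receptor of blood endothelium, was at 0.112, 0.805 and 0 CPM in WT and 1.04, 1.20 and 0 CPM in KO. Vwf, the gene of von Willebrand factor, was at 0.187, 0.290 and 0 CPM in WT and 1.32, 1.63 and 0.568 CPM in KO. All KO libraries lay above all WT libraries for Vwf, whereas Cdh5 and Kdr overlapped. A count of 0 in WT replicate 3 allows up to 0.0965 CPM.

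The lymphatic markers of the set, Lyve1 and Prox1, were highest in WT replicate 1, whereas Flt4, outside the set, was highest in WT replicate 2. Lyve1, a hyaluronan receptor gene of lymphatic endothelium that some macrophages also express, was at 4.49, 1.06 and 0.675 CPM in WT and 0.189, 0.123 and 0.349 CPM in KO. Every WT library lay above every KO library, and WT replicate 1 held 65.2% of the summed Lyve1 CPM. The KO values of Lyve1 rested on 6, 4 and 8 counts. Prox1, the transcription factor of lymphatic identity, had 36 counts in WT replicate 1 and none in any other library, and was not tested.

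Lyve1 is also known from macrophages and Vwf from platelets, and the part of these cells in the results above was not tested. Of 18 macrophage genes, 12 were tested and 0 passed (edgeR), against 0.101% of all tested genes, with a median log2 fold change of 1.73. An unadjusted p under 0.05 was reached by 7 (Mrc1, C1qa, C1qb, C1qc, Ccr2, Ms4a7 and F13a1), against 5.99% of all tested genes. Their summed level, led per kb by Cd68, Csf1r and Adgre1, was 553 to 604 CPM in WT and 680 to 703 CPM in KO. Folr2 had no counts in any library. Mrc1, a gene of tissue macrophages, had 3, 10 and 25 counts in WT and 10, 168 and 64 in KO, and Cd163 had 0, 0 and 4 in WT and 0, 42 and 8 in KO. Of other genes used for lymphatic vessels, Mmrn1 had 37 counts in WT replicate 1 and none elsewhere, as did Prox1 with 36. Flt4 had 14 and 19 counts in WT replicates 1 and 2 and none elsewhere, Ccl21a had none in any library and Pdpn had 289 to 580 in each. Of 10 erythroid and platelet genes, 3 were tested and 0 passed, with 1 at an unadjusted p under 0.05 (Pf4). The list summed to 8.72 to 35.1 CPM in WT and 7.80 to 51.1 CPM in KO, and Gp1bb had no counts in any library. Pf4, a platelet chemokine gene, had 81, 90 and 61 counts in WT and 135, 394 and 228 in KO. The platelet receptor genes Itga2b and Gp9 had at most 15 and 20 counts in a library.

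Ratios of counts within a library do not depend on its depth, and several differed between libraries by more than their counting intervals. Of 10 such ratios, 4 are described here, all chosen after the counts were seen and given without a test. Krt15 relative to Krt14 was 0.295, 0.0767 and 1.01 in WT and 0.0233, 0.187 and 0.0610 in KO. The exact 95% counting interval was 0.927 to 1.11 in WT replicate 3 and 0.0662 to 0.0885 in WT replicate 2. Both of those libraries had high epithelial sums, yet Krt15 matched Krt14 in one and was a small fraction of it in the other. Aldh3a1 relative to Krt14 was 0.201, 0.0165 and 0.262 in WT and 0.170, 0.0549 and 0.0684 in KO, lowest where Krt14 was highest.

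The other ratios concerned the basal pair and the collagens. Krt5 relative to Krt14 was 0.517, 0.364 and 0.522 in WT and 0.242, 0.337 and 0.174 in KO. It was the only one of the 10 ratios in which the genotypes did not overlap, and the counting intervals of the replicates numbered 2 did overlap (0.338 to 0.392 in WT and 0.309 to 0.367 in KO). For single genes, the groups did not overlap in 11.6% of all tested genes, so 1 such ratio of 10 does not stand out. Col3a1 relative to Col1a1 was 0.0432, 0.0635 and 0.386 in WT and 0.00654, 0.682 and 0.0173 in KO, high in WT replicate 3 and KO replicate 2.

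**Figure D3:**
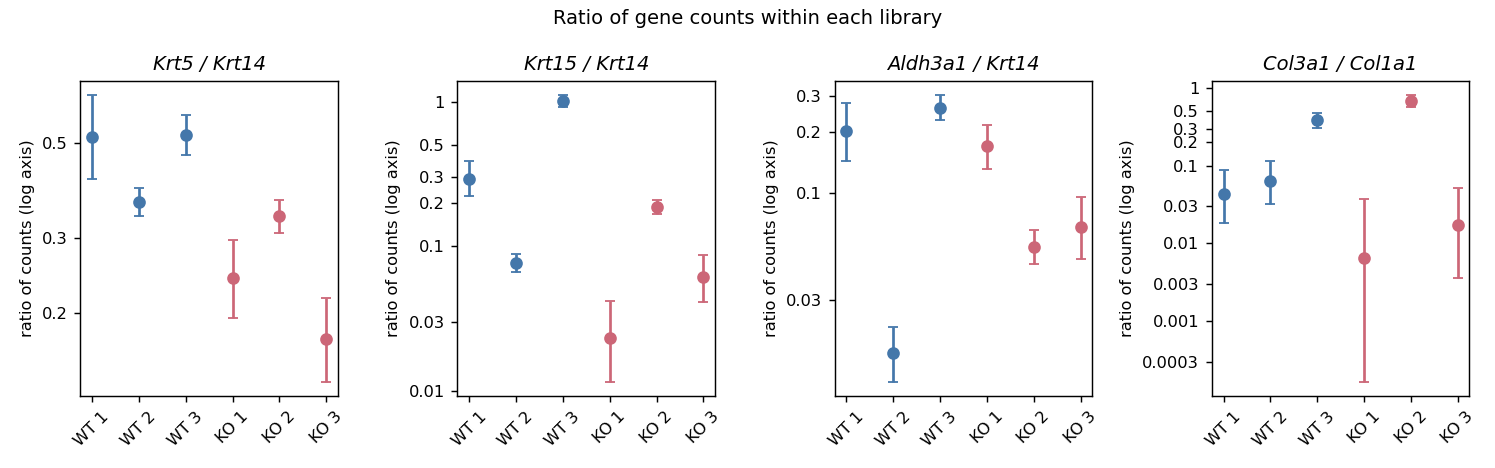
Ratio of gene counts within each library on a log axis, with exact 95% counting intervals as bars. Krt15 relative to Krt14 runs from 0.0233 in KO replicate 1 to 1.01 in WT replicate 3, and Col3a1 relative to Col1a1 from 0.00654 in KO replicate 1 to 0.682 in KO replicate 2.

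The library with the highest level differed from gene to gene. Of the 34 genes, 10 were highest in WT replicate 2, 11 in KO replicate 2, 8 in WT replicate 3, 3 in WT replicate 1 (Kera, Lyve1 and Prox1) and 1 each in KO replicates 1 (Cdh5) and 3 (Col6a1). For 8 epithelial genes, Krt5, Krt14, Cdh1, Epcam, Trp63, Dsp, Perp and Sfn, the top 2 libraries were both those numbered 2. Among the KO libraries, replicate 2 was the highest for all 16 epithelial genes, for 8 of 13 stromal genes and for 2 of 5 vascular genes. Among the WT libraries, the highest epithelial level was in replicate 2 for 9 genes and in replicate 3 for 7.

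The genotype comparison asked whether any of these genes differed between WT and KO beyond the spread within each. Of the 34 genes, 27 had enough counts to be tested (13 epithelial, 10 stromal and 4 vascular), and 0 passed in either direction at an adjusted p under 0.05 (edgeR quasi-likelihood test), against 0.101% of all 11924 tested genes. At an unadjusted p under 0.05 there were 3, Kera, Vwf and Lyve1, or 11.1% of the tested members against 5.99% of all tested genes. The same 3 were the tested members whose groups did not overlap, a share of 11.1% against 11.6% over all tested genes. DESeq2 called 1 member, Lyve1, and 0.579% of 11911 genes, and limma-voom called none.

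Lyve1 had the smallest adjusted p of the members. Its level was 2.08 ± 2.10 CPM in WT and 0.220 ± 0.116 CPM in KO (SD, n = 3 each), a log2 fold change of -3.24 (SE 0.80, 95% interval -5.02 to -1.47, edgeR adjusted p = 0.38). DESeq2 gave an adjusted p of 0.012. Over the alternatives run the edgeR and limma adjusted p lay between 2.7e-04, without a filter on low counts, and 0.84, without KO replicate 3. Without WT replicate 1 the log2 fold change was -1.996, and without KO replicate 2 it was -2.95. Vwf, at 0.159 ± 0.147 CPM in WT and 1.17 ± 0.548 CPM in KO, had a log2 fold change of 2.86 (interval 0.83 to 4.90, edgeR adjusted p = 0.61). Kera, at 0.848 ± 0.504 and 0.226 ± 0.115 CPM, had a log2 fold change of -1.90 (interval -3.57 to -0.23, edgeR adjusted p = 0.79).

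Taken over all compartments, the fitted changes were centred near those of all genes. The compartment medians differed in direction in the fit of all libraries, although the log2 ratios of the summed CPM were negative in all 3 compartments. The median log2 fold change of the 27 tested members was -0.07, against 0.0045 for all tested genes, with 14 members lower and 13 higher in KO, while 49.3% of all tested genes were lower. Of the 13 tested epithelial genes, 10 were lower in KO and 3 (Krt12, Krt13 and Dsp) higher, with a median of -0.56, none of them past the test. Of the 10 tested stromal genes, 3 (Kera, Dcn and Sparc) were lower and 7 higher, with a median of 0.43. In the vascular set 1 (Lyve1) was lower and 3 were higher, with a median of 0.70. KO replicate 2 was the highest KO library for all 16 epithelial genes, so leaving it out can only lower their KO means. Without KO replicate 2, 12 of the same 13 epithelial genes were lower, the exception being Krt12. In that fit the log2 fold change of Krt5 went from -0.82 to -2.19, of Perp from -0.58 to -1.54 and of Krt15 from -1.55 to -4.01, and none passed (edgeR). Of the stromal genes, Col1a1 (-0.33), Col1a2 (-0.53) and Col3a1 (-4.27) turned lower there, and Kera, Dcn and Sparc stayed lower. Col5a1, Col6a1, Lum and Pdgfrb stayed higher, so the direction of the stromal set depended on KO replicate 2. Each tested vascular gene kept its direction. Without WT replicate 2 instead, Krt14 (0.77), Dsp (2.33), Epcam (0.37), Cdh1 (0.23), Sfn (0.34), Krt12 (1.14) and Krt13 (0.45) were higher in KO. Krt5, Krt15, Krt19, Aldh3a1, Clu and Perp were lower in that fit, so the direction of the epithelial set depended on the library left out. A p above the threshold does not show equal levels here. The 95% interval lay within 2-fold in both directions for only 2 members, Sfn (-0.97 to 0.83) and Col1a1 (-0.68 to 0.71).

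**Figure D4:**
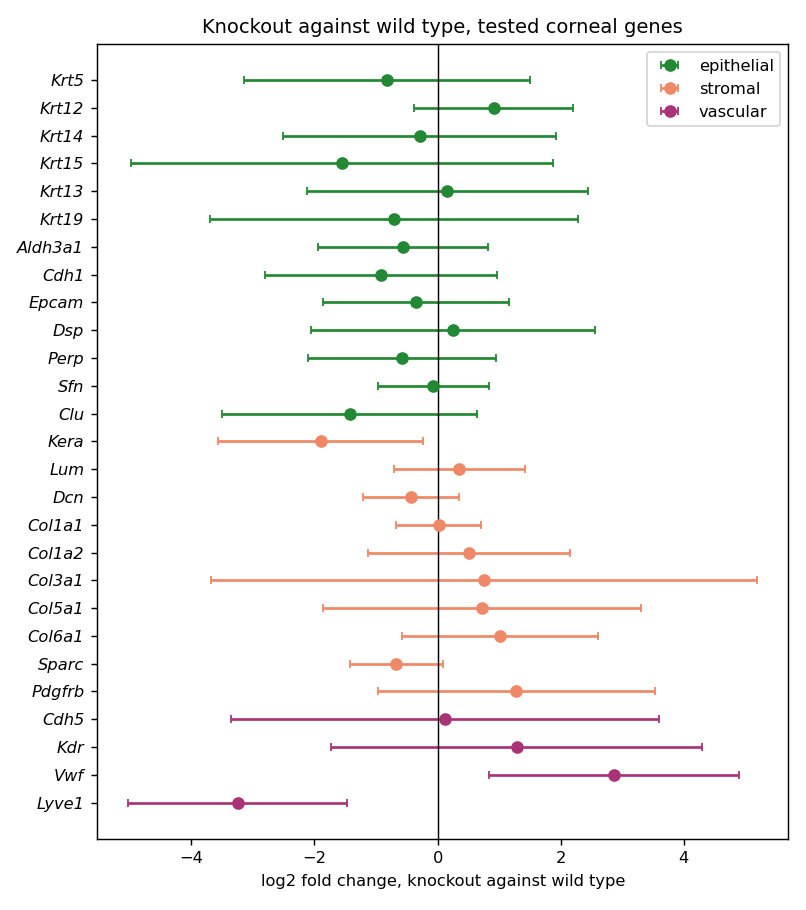
Log2 fold change, KO against WT, with 95% intervals as bars for the 27 tested genes (edgeR). The intervals of Kera, Vwf and Lyve1 leave out 0, and none of the 27 passed after adjustment over all tested genes.

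Without a filter on low counts, 24151 genes were tested and 7 of the 34 members passed, all lower in KO, against 0.766% of all genes. These were Krt15, Lyve1, Prelp, Fmod, Krt5, Clu and Prox1, with edgeR adjusted p of 3.4e-07, 2.7e-04, 0.0011, 0.011, 0.017, 0.018 and 0.033 in that order. Fmod and Prox1 rested on a single WT library each. For Krt15, whose KO libraries overlap the WT libraries, the standard error of the log2 fold change was 0.25 in that fit and 1.39 with the filter. Krt5 and Clu overlapped between genotypes too, with standard errors of 0.22 and 0.37 in that fit and 0.94 and 0.90 with the filter.

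Spread between libraries was larger for the corneal genes than for most others. The median biological coefficient of variation, edgeR's estimate of the relative spread beyond counting error, was 0.642 for the 27 tested members and 0.291 for all tested genes. Of the 27, 26 lay above the all-gene median, the exception being Col1a1 at 0.285. The most variable were Col3a1 at 1.44, Cdh5 at 1.41, Kdr at 1.15, Krt19 at 1.12 and Krt15 at 1.08. Among members at more than the floor in every library of a genotype, the median fold from lowest to highest library was 5.77 in WT (21 members) and 4.11 in KO (23 members). Over all tested genes it was 1.46 and 1.48. Between KO replicates 1 and 3 alone the median of those 23 members was 1.59, a range over fewer libraries. The members were not matched to other genes of the same level.

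Other genes of the corneal epithelium spread unequally across the libraries too. Of 44 such genes, 40 were detected and 30 tested, and 0 passed (edgeR; 0 at an unadjusted p under 0.05, median log2 fold change -0.09). Krt17, a wound keratin, was at 5.43, 46.8 and 11.3 CPM in WT and 8.24, 43.5 and 10.1 CPM in KO, highest in the libraries numbered 2 as was Krt14. In contrast, Lamb3, a laminin 332 chain gene and per kb the highest of the list, stayed between 108 and 137 CPM. Of the 37 genes of this list with at least 10 counts, 12 were highest in WT replicate 2 and 18 in KO replicate 2. Those highest in WT replicate 2 included Lama3, Itgb4 and Col17a1, genes of the hemidesmosome and its anchorage that were named after their values were seen. Of the tight junction and desmosome genes, Cldn3, Cldn4, Cldn7, Dsg3, Dsc2, Dsc3, Pkp3 and Ppl were highest in KO replicate 2. Cldn1 and Pkp1 were highest in WT replicate 2, and Ocln and Evpl in WT replicate 3.

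Further stromal and vessel genes were likewise uncalled. Of 22 stromal genes, 21 were detected and 12 tested, and 0 passed (edgeR, median log2 fold change 0.43). Fn1 and Mmp14, 2 of the 12, had an unadjusted p under 0.05 (edgeR), against 5.99% of all tested genes. The highest per kb were the matrix metalloproteinase genes Mmp3, Mmp14 and Mmp2. Mmp3 had 511, 814 and 2301 counts in WT and 370, 1726 and 309 in KO, with WT replicate 3 and KO replicate 2 at the top as for Col3a1. Mmp14 had 280, 400 and 387 counts in WT and 491, 1291 and 621 in KO, and Mmp2 had 104 to 225 counts in a library. Of 16 vessel genes, 15 were detected and 6 tested, and 0 passed (edgeR; 0 at an unadjusted p under 0.05, median log2 fold change -0.12). Pdpn and Pecam1, which are not restricted to vessels, had 289 to 580 and 899 to 1341 counts in a library. The blood endothelial gene Plvap had 13, 187 and 1 counts in WT and 68, 13 and 0 in KO, with WT replicate 2 and KO replicate 1 highest.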

How the data were processed

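RNA of sorted neutrophils was sequenced in 3 libraries per genotype, after purification with the RNeasy Micro kit and SMART-seq v4 amplification, per the labels' protocols. That kit keeps no strand information. The genome builds GRCm38 and mm10, and the tools FastQC 0.11.9, Trimmomatic 0.39 and STAR 2.7.8a, are named in the submitters' processing notes. The annotation release was not given in the sources used here. Deposited values were raw gene counts in STAR's column layout, and the authors' unstranded column was used, in which reads over overlapping gene models are dropped. GENCODE M21 gave symbols, positions, exon lengths and transcripts for 54809 of 54838 genes.

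After edgeR's expression filter by genotype, which kept 11924 genes, TMM-scaled counts were compared by the robust quasi-likelihood test of edgeR 4.0.16 (with limma 3.58.1 in R 4.3.3), without a replicate term. The p-values were adjusted by Benjamini-Hochberg over all tested genes, with a threshold of 0.05. The procedure was tested on simulated data. The 34 members, the 15 other lists and the tests were chosen with earlier results of these data known. Members with a mean of at least 1 CPM, or tested, are given in every library, and other lists by their 3 genes highest per kb. Some of those genes are not reported here. Summed CPM and ratios carry no test, since an exact two-sided permutation test of 3 libraries against 3 reaches 0.1 at best. Shared sequence was searched as identical 50-base stretches among annotated transcripts. The settings varied were the scaling (DESeq2 size factors, or library size only), the filter (none, or 5 CPM in at least 3 libraries), a block for replicate number, the summed strand columns, the tool (limma-voom, DESeq2 1.42.0) and each library in turn. Leaving out both libraries numbered 2, and Clu, Perp and Sfn from the epithelial sum, was added after seeing the data.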

Additional observations from a re-analysis of the deposited data

How the results depend on the processing

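Over all genes, 12 were called with the main settings, 185 without a filter, 21 with the filter at 5 CPM, 20 with the replicate block, 69 by DESeq2, 6 without both libraries numbered 2 (added after seeing the data), and 7 to 24 with one library left out (7 without WT replicate 1 or 2, 24 without KO replicate 1). Members called numbered 7 without a filter, 1 by DESeq2 and 0 under each of the other settings. The labels do not say what a replicate number marks, and it was not treated as a pairing: deviations of same-numbered libraries correlated at 0.14, 0.06 and 0.00, those of other pairs at -0.19 to 0.14, and the block called 0 members. The log2 ratio of the summed CPM lay between -1.36 and -0.01 (epithelial), -0.59 and 0.12 (stromal) and -0.89 and 0.54 (vascular) with one library left out.

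Of 382 member values over 15 alternatives, 36 changed sign, in 16 of 27 genes, none of them past the threshold in the fit concerned, and the cause was not tested. With the replicate block these were Col3a1 (-0.90), Cdh5 (-1.13), Col1a1 (-0.026) and Krt13 (-0.44) on the log2 scale. Under limma-voom they were Col3a1 (-0.96), Col5a1 (-0.26), Cdh5 (-1.15), Col1a1 (-0.031), Krt13 (-0.51) and Krt19 (0.41). Without both libraries numbered 2 they were Col5a1 (-0.26), Col1a2 (-0.83), Lum (-0.21) and Col1a1 (-0.47). With one library left out, the log2 fold changes that changed sign spanned Col3a1 -4.27 to 2.88, Sfn -0.52 to 0.34, Col1a2 -0.53 to 1.04, Cdh5 -6.41 to 0.82, Cdh1 -1.58 to 0.23, Clu -1.96 to 0.36, Aldh3a1 -0.96 to 0.69, Col1a1 -0.33 to 0.26, Krt13 -2.32 to 0.66, Krt15 -4.01 to 0.0079, Krt19 -2.17 to 0.38, Krt14 -1.14 to 0.77, Dsp -0.45 to 2.33 and Epcam -1.16 to 0.37. Kera, Vwf and Lyve1 kept their direction in every fit that tested them. Depth limits the low genes: 15 of 34 members averaged under 1 CPM, and 11 had no counts in at least 1 library.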

Other observations

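Of 5 melanocyte genes, 3 were highest in WT replicate 3 (Dct, Tyr and Tyrp1) and 2 in KO replicate 1 (Mlana and Pmel). The list summed to 7.69 CPM in WT replicate 3 and to 0.216 to 1.13 CPM in the other 5 libraries. Tyrp1 and Tyr, enzymes of pigment synthesis, had 72 and 25 counts in WT replicate 3 and none elsewhere. Dct, of the same pathway, had 131 counts there and at most 11 in another library, whereas Pmel had 1 to 18 counts in every library and Mlana had 5, 0 and 1 counts in WT and 7, 6 and 1 in KO. On the sum of the strand columns Pmel had 33 to 91 counts in a library. WT replicate 3 was also the library with the highest Krt15, Krt19, Pax6, Aldh3a1, Clu, Dcn, Fmod and Prelp.

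Of 15 detected vessel genes beyond the members, 7 were highest in WT replicate 2, 5 in KO replicate 1, 2 in WT replicate 1 and 1 in KO replicate 3. The genes named here were chosen after their values were seen. Tie1 had 51 and 37 counts in WT replicate 2 and KO replicate 1 and Tek 16 and 12, with none in the other 4. Esam had 36 and 50 counts there and at most 10 elsewhere. Robo4 instead had 48 counts in KO replicate 1, 13 in WT replicate 1 and none in WT replicate 2, and Cldn5 was highest in WT replicate 1, with 10 counts. Flt1 had 61 to 194 counts in every library.

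Markers of other tissues and cells were given by the same rule. None of those tested was called (edgeR), against 0.101% of all tested genes. Tested were 1 of 6 pericyte and muscle, 1 of 5 corneal endothelium and 2 of 6 nerve and Schwann cell genes. So were 1 of 8 lens and retina, 4 of 6 dendritic, 2 of 10 T and NK, 1 of 5 B cell and 1 of 5 mast cell genes. Sag, Zbtb46, Itgax and Retnlg had an unadjusted p under 0.05 (edgeR), against 5.99% of all tested genes. Acta2, the highest per kb of the pericyte and muscle list, had 1470 to 2079 counts in a library, and its companions Tagln and Myh11 had at most 5 and 21. The unstranded count leaves out reads where gene models overlap, and on the sum of the strand columns Tagln had 31 to 100 counts. The corneal endothelium list (Slc4a11, Col8a2 and Col8a1 highest) summed to at most 1.09 CPM. Mbp and Ncam1 led the nerve and Schwann cell list, which summed to 10.9 to 32.9 CPM, and Sag, Cryba4 and Cryba1 led the lens and retina list, at 2.93 to 7.59 CPM. Among immune lists, Cd68, Csf1r and Adgre1 led the macrophage genes, and Itgax, Clec9a and Xcr1 the dendritic cell genes (37.5 to 65.2 CPM). Cd3d, Trac and Cd3g led the T and NK cell genes (0.692 to 1.68 CPM), of which Cd3e, Cd4, Cd8a, Nkg7, Klrb1c and Ncr1 had no counts. Ighm, Cd79a and Ms4a1 led the B cell genes (5.85 to 11.2 CPM), and Kit, Mcpt4 and Tpsb2 the mast cell and basophil genes (3.92 to 10.3 CPM). Ppbp, Pf4 and Gp9 led the erythroid and platelet genes, and Ppbp had 104, 972 and 215 counts in WT and 89, 1255 and 246 in KO, highest in the libraries numbered 2. S100a9, S100a8 and Lcn2 led the neutrophil list.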
